A study of Mus musculus with 40 samples.

Results

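The genes described here are 39 antioxidant genes of the mouse, with those of NRF2 and its inhibitor KEAP1 among them. They include the enzymes that make, recycle and use glutathione, the thioredoxins and the peroxiredoxins. Genes of NADPH supply and the pentose phosphate pathway, and further targets of NRF2, are also among them. Their symbols were listed by known function, at a time when other results of these data were already known. All 39 symbols are listed among the 23480 genes of both expression tables, and 36 of them were abundant enough to be tested in each table. Gpx2 had no reads in any library, Gpx7 had at most 2 reads in a library, and Gstm1 was under the minimum level in both tables, so these 3 have values but no test.

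Expression was profiled by RNA-seq in lines made from 4T1, a carcinoma of the mouse mammary gland kept in culture, and each line carried 1 of 10 short hairpin RNAs. Such a hairpin is cut by the cell into a small RNA that lowers the messenger RNAs it pairs with, and the title of the series frames it as a study of unintended effects of such hairpins. Hairpin 66708 and the hairpins Slpi1U1, Slpi1U2, Slpi2 and Slpi4 are in a table named for Slpi, a secreted protease inhibitor. Hairpin 88943 and the hairpins Mgp1, Mgp1U1, Mgp1U3 and Mgp2 are in a table named for Mgp, the matrix Gla protein. Lines with 66708 or 88943 were selected with puromycin at 1 µg/ml, and the other 8 lines with hygromycin at 500 µg/ml, after infection at a multiplicity of 0.3 and for about 10 days. The hairpins 66708 and 88943 are called TRC hairpins here, after the public library whose numbering their names resemble, and the other 8 are called shERWOOD hairpins, after a design algorithm. Both sources were inferred from the names and the drug. Source, vector and drug coincide in every comparison, so their parts in a difference cannot be told apart. No line without a hairpin, and none with a hairpin against an unrelated gene, was analysed here, and whether a line was a pool or a clone is not given in the sources used here. Each hairpin has 2 libraries in its table. The labels do not say whether the 2 were grown as separate cultures, and the tests therefore rest on a spread between libraries that may be technical only.

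NRF2, encoded by Nfe2l2, is a transcription factor that KEAP1 holds in the cytoplasm and marks for degradation. Oxidants and electrophiles modify KEAP1, NRF2 then accumulates, and with a small MAF protein it binds antioxidant response elements in the promoters of its target genes. Glutathione and thioredoxin are the 2 thiol systems that pass electrons from NADPH to the enzymes that remove peroxides, and many tumour lines rely on both.

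Because NRF2 acts through a short DNA element, the promoters of the members were searched for its core, TGACNNNGC, on both strands. RefSeq promoters of build GRCm38.p6, which run from 250 bases before to 50 bases after a start site, were found for 34 of the 39 members, in 43 promoters. Of the 34 members, 10 (29.4%) had the core in a promoter: Nfe2l2, Gclm, Txnrd1, Srxn1, Prdx1, G6pdx, Pgd, Me1, Mgst1 and Sod1. Of 27025 genes with a promoter of the same length, 14.0% had it. By promoter, the shares were 23.3% of the members' 43 and 12.4% of all 32851. In Prdx1 and Me1 the core overlapped an AP-1 site, TGACTCA, as the joined form TGACTCAGC, which 0.454% of all promoters held. Of all promoters, 5.20% held an AP-1 site. A match is a description of letters, not a bound site. Likewise, a member without the core here may still have an element outside this window or of another form, which was not searched. The 4 promoters printed here belong to members with different results, described further on. Prdx1 and Txnrd1 were higher with 66708 and lower with 88943, but the Txnrd1 call with 66708 was lost under some settings. G6pdx was higher with both, with the same limit for 66708, and Srxn1 was lower with both. Each is written 5′ to 3′ on the strand of its gene, and the capitals mark the core, which lies in reverse orientation in all 4.
Prdx1, chr4:116685349-116685648, plus strand: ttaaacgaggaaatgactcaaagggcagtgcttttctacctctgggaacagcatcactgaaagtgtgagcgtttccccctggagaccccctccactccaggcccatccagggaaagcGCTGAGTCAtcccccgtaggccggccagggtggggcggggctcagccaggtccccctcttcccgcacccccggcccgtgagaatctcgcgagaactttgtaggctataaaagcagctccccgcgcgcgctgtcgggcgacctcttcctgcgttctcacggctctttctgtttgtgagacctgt
Txnrd1, promoter 2 of 3, chr10:82858956-82859255, plus strand: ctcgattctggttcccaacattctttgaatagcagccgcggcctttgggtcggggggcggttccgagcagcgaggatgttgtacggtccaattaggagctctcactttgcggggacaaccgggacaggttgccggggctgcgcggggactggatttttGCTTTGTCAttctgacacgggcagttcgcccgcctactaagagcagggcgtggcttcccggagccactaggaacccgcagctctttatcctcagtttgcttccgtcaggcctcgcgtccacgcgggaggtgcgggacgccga
G6pdx, chrX:74428831-74429130, minus strand: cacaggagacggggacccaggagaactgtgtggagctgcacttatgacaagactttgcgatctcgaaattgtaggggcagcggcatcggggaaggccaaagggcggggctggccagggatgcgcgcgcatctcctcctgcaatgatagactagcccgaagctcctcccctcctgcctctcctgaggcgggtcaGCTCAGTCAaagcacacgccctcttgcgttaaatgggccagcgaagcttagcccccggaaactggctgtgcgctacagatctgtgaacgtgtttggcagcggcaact
Srxn1, chr2:152105274-152105573, plus strand: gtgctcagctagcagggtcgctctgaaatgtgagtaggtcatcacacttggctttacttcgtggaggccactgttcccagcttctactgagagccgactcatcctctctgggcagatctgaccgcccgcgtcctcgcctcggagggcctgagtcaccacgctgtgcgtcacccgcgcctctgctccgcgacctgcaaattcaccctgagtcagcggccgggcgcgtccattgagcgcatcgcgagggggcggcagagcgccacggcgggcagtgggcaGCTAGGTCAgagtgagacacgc
The first base of the core lay 133 bases before the start site in Prdx1, 92 in Txnrd1 and 57 in G6pdx, and 28 bases after it in Srxn1. The Prdx1 and Srxn1 promoters held 2 AP-1 sites each.

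Depth per library, in M (mega) reads, ran from 12.2 to 28.5 M among the Slpi hairpins and from 12.1 to 23.3 M among the Mgp hairpins. Values are given as scaled reads, which are reads divided by the size factor of the library, recovered from the deposited log2-like values. They can be compared within a table but not across tables, where CPM, reads scaled to a common library total, are given instead. With 66708, the Slpi transcript had 2734 and 2520 scaled reads, and with the 4 shERWOOD hairpins against it 759 to 1027. With 88943, the Mgp transcript had 264 and 250 scaled reads, against 19.3 to 152 with its 4 shERWOOD hairpins. The gene named by its table was therefore higher in each TRC line than in any of the lines it was compared with. The epithelial genes Epcam, Cdh1, Krt8, Krt18, Krt19 and Krt14 were present in all 20 libraries. Markers of leukocytes (Ptprc at most 0.262 CPM), endothelium (Pecam1 at most 0.540 CPM) and fibroblasts (Col3a1 at most 0.164 CPM, Thy1 at most 0.0617 CPM) were at or near 0, although Cd68 reached 8.17 CPM and Pdgfra 57.3 CPM. Of the 6 epithelial genes, 5 averaged more CPM in each TRC line than in any shERWOOD line of its table: Epcam (109 with 66708 and 179 with 88943, against 54.6 to 68.2), Cdh1 (572 and 666, against 401 to 507), Krt14 (32.3 and 30.3, against 8.83 to 19.8), Krt8 and Krt18. Krt19 was split, at 46.4 CPM with 66708 against 68.3 to 87.0 in its table, and 83.7 CPM with 88943 against 34.6 to 44.5. The part of these markers in the results was not tested. The ribosomal RNA gene Rn45s took 2.77% and 2.31% of the reads in the 66708 libraries and at most 1.87% in the other 8 of that table. The 2 libraries of Mgp2 differed from each other more than those of any other hairpin, with a chi-square of 12.1 per degree of freedom against 1.57 at the lowest.

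Compared with the mean of the 4 shERWOOD lines of its table, each TRC line differed in most antioxidant genes, and in most of all genes tested. As deposited, more members were higher than lower with 66708, and more were lower than higher with 88943, as was also so for all genes. With 66708, 23 of the 36 tested members were higher, 5 were lower and 8 were not called. The call was an adjusted p below 0.05 in limma's two-sided moderated test, and 55.7% of the 9489 genes tested were called, 32.1% higher and 23.6% lower. With 88943, 10 members were higher, 20 were lower and 6 were not called, where 70.7% of the 9174 genes tested were called, 28.7% higher and 42% lower. Of all called genes, 57.6% were higher with 66708 and 40.6% with 88943. Scaling the libraries by their total reads, an alternative added after the data were seen, turned these shares to 37.7% and 59.6%, and gave 13 members higher and 7 lower with 66708, and 15 higher and 17 lower with 88943. The members were, as deposited, called somewhat more often than all genes in both lines, which was not tested. With library totals, 1984 of all 9489 genes were higher and 3274 lower with 66708, so members were then called about as often as all genes. With 88943, 3890 of 9174 genes were higher and 2640 lower with library totals, and members were still called more often. As deposited, the median log2 difference of the members was 0.12 with 66708, where that of all genes tested was 0.02. It was -0.20 with 88943, where that of all genes was -0.04. Both 66708 libraries lay above all 8 shERWOOD libraries for 20 members and below them for 5, against 28.3% and 20.4% of all genes (48.6% on either side). Both 88943 libraries lay above for 8 members and below for 19, against 24.3% and 36.2% (60.4% on either side). Differences on the deposited scale are smaller than true log2 ratios for genes of low level: a doubling from 1000 to 2000 scaled reads counts as 0.77 among the Slpi hairpins and 0.75 among the Mgp hairpins.

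**Figure D1:**
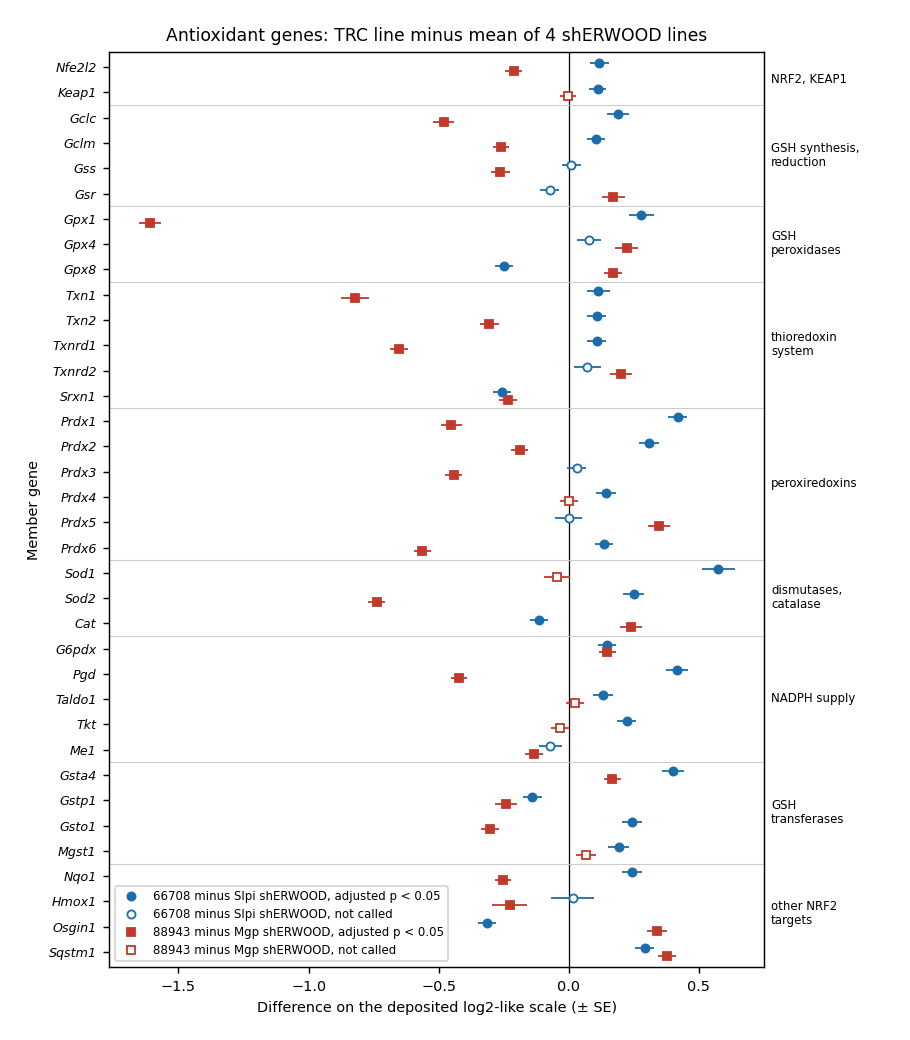
Difference between the TRC line and the mean of the 4 shERWOOD lines of its table (horizontal axis, deposited log2-like scale, bars are standard errors) for the 36 tested antioxidant genes, grouped by role. Circles are 66708 and squares are 88943, filled where the adjusted p was below 0.05; the circles lie between -0.32 and 0.57, most of them to the right of 0, and most squares lie to the left, with Gpx1 farthest at -1.61.

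Side by side, 14 members were called higher with 66708 and lower with 88943, and 3 were called the opposite way, Gpx8, Osgin1 and Cat. Among the 9144 genes tested in both tables, 18.4% were called higher with 66708 and lower with 88943, and 10.6% the reverse. Another 3 members were higher with both, G6pdx, Gsta4 and Sqstm1, where 6.44% of all genes were. Srxn1 and Gstp1 were lower with both, where 5.91% of all genes were. When libraries were scaled by total reads, 7 members were higher with 66708 and lower with 88943 in place of 14: Gclc, Gpx1, Prdx1, Nqo1, Pgd, Gsto1 and Sod2. With that scaling, Gsr, Gpx8, Osgin1 and Cat were called the opposite way. Tkt, Gsta4, Mgst1 and Sqstm1 were then higher with both, without G6pdx, and Srxn1 and Gstp1 were lower with both. The shares of all genes in these classes were not counted with library totals. The tables were normalized separately, so the difference between the lines was not tested.

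NRF2 itself and KEAP1 differed little. Nfe2l2 had 3132 and 3369 scaled reads with 66708, and 2752 to 3146 with a median of 2988 in the 8 shERWOOD libraries. One 66708 library lay inside the shERWOOD range and the other above it, a ratio of the means of 1.10. The log2 difference was 0.12 ± 0.04 (SE), adjusted p = 0.0135, and without 66708 replicate 2 it was 0.07 with an adjusted p of 0.247. With 88943, Nfe2l2 had 2678 and 2692 scaled reads, against 3074 to 3313 with a median of 3194. Both libraries were below all 8 others, and the ratio of the means was 0.841 (log2 difference -0.21 ± 0.03, adjusted p = 1.58e-05). Keap1, the adaptor that targets NRF2 for degradation, was 1.11-fold higher with 66708 (0.11 ± 0.03, adjusted p = 0.0113). That call was lost without 66708 replicate 1 (adjusted p = 0.0827) or replicate 2 (0.0641). With 88943, Keap1 had 1028 and 989 scaled reads in a shERWOOD range of 954 to 1108, and its log2 difference of 0.00 was not called. Exons of an opposite-strand transcript, Gm16754, cover 10.9% of the Keap1 exons, and without a stated strand setting their reads cannot be told apart.

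Of the 4 genes of glutathione synthesis and reduction, 3 were lower with 88943 (42% of all genes were) and 2 were higher with 66708 (32.1% of all genes). Gclc, the catalytic subunit of the rate-limiting ligase, had 1027 and 1129 scaled reads with 88943, against 1295 to 1943 with a median of 1753. Both libraries were below the other 8, by 1.58-fold (log2 difference -0.48 ± 0.04, adjusted p = 3.01e-08). With 66708, Gclc had 1456 and 1604 scaled reads, against 1198 to 1368 with a median of 1299. Both were above the others, 1.19-fold (0.19 ± 0.04, adjusted p = 0.00197), but not past the threshold without 66708 replicate 2 (0.13, adjusted p = 0.0682). Gclm, the modifier subunit of the same ligase, had 1468 and 1375 scaled reads with 88943, against 1689 to 1892 with a median of 1802, and was 1.26-fold lower (-0.26 ± 0.03, adjusted p = 2.22e-06). Its 1764 and 1752 scaled reads with 66708 exceeded a range of 1535 to 1678 with a median of 1606 (0.10 ± 0.03, adjusted p = 0.0176). Without 66708 replicate 1 or 2 the adjusted p for Gclm was 0.112 or 0.0813. Both ligase subunits thus lay outside the shERWOOD range in each table, above it in one and below it in the other. Gss, which adds glycine in the last step of glutathione synthesis, was 1.44-fold lower with 88943 (-0.26 ± 0.04) and had a ratio of 1.01 with 66708, which was not called. Gsr, the reductase that regenerates glutathione with NADPH, was 1.15-fold higher with 88943 (0.17 ± 0.04, adjusted p = 0.00205), with 1 library inside the shERWOOD range. It was not called without 88943 replicate 1 (adjusted p = 0.0813), and with 66708 its log2 difference of -0.07 ± 0.04 was not called.

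Glutathione peroxidase 1 showed the largest difference of any member. Gpx1, the abundant selenoprotein that reduces hydrogen peroxide (GRCm38 chr9:108338903-108340343), had 5410 and 5033 scaled reads with 88943. The 8 shERWOOD libraries of that table held 16127 to 18131 with a median of 17205. Every library of the other 4 lines was thus far above both 88943 libraries, and the means differed by 3.26-fold (log2 difference -1.61 ± 0.04, adjusted p = 4.59e-14). With 66708, Gpx1 had 14976 and 13529 scaled reads against 11066 to 12610 with a median of 11616. Both libraries were above the range, 1.22-fold (0.28 ± 0.05, adjusted p = 0.000205). Gpx8, a peroxidase of the endoplasmic reticulum without selenium, went the other way. It had 2976 and 3019 scaled reads with 66708, below a range of 3458 to 3770 with a median of 3681 (-0.25 ± 0.04, adjusted p = 3.14e-05). With 88943 it had 3076 and 3262, above a range of 2627 to 2910 with a median of 2754 (0.17 ± 0.03, adjusted p = 0.000279). Gpx4, which reduces lipid hydroperoxides and guards against ferroptosis, was 1.40-fold higher with 88943 (0.22 ± 0.04), and its log2 difference of 0.08 ± 0.05 with 66708 was not called. Gpx4 has a named pseudogene, Gpx4-ps2, so its count is less certain. Of the 5 peroxidases of the list, Gpx2 and Gpx7 were not tested.

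Of the 5 genes of the thioredoxin system, 4 were lower with 88943, where 42% of all genes were. Txn1, the cytosolic thioredoxin, had 12505 and 11810 scaled reads with 88943, against 20152 to 24018 with a median of 21784. Both libraries were well under the other 8, by 1.81-fold (log2 difference -0.82 ± 0.05, adjusted p = 1.70e-09). With 66708 Txn1 had 21618 and 19753 scaled reads, and the shERWOOD range of 17632 to 21274, with a median of 19059, covered the second of them. The difference of 0.11 ± 0.04 passed the threshold (adjusted p = 0.0350) but fell short of it without 66708 replicate 1 (0.05, adjusted p = 0.496), Slpi1U2 replicate 1 (adjusted p = 0.0529), Slpi2 replicate 1 (0.0601) or Slpi4 replicate 1 (0.0619). Txnrd1, the selenoprotein reductase that recharges Txn1, had 2805 and 2885 scaled reads with 88943, against 4426 to 5084 with a median of 4736. The gap between the line and the other 4 was 1.68-fold (-0.65 ± 0.03, adjusted p = 9.98e-11). With 66708 it had 4091 and 4264 scaled reads, just above a range of 3682 to 3977 with a median of 3851 (0.11 ± 0.04, adjusted p = 0.0203; 0.205 without 66708 replicate 2). In mitochondria the pair was split. Txn2, the mitochondrial thioredoxin, had 725 and 660 scaled reads with 88943, against 876 to 1041 with a median of 977 (-0.31 ± 0.04). Txnrd2, its reductase, was instead 1.43-fold higher with 88943 (0.20 ± 0.04, adjusted p = 0.000504). With 66708, Txn2 had 889 and 869 scaled reads, above a range of 745 to 846 with a median of 784. Its difference of 0.11 ± 0.04 (adjusted p = 0.0254) was not called without 66708 replicate 1 (adjusted p = 0.165) or 2 (0.0819), and that of Txnrd2, 0.07 ± 0.05, was not called at all. Srxn1, the sulfiredoxin that repairs over-oxidized peroxiredoxins and a well-known NRF2 target, was lower with both hairpins. It had 614 and 602 scaled reads with 66708, against 752 to 876 with a median of 795 (-0.26 ± 0.03, adjusted p = 2.19e-05). The 88943 libraries had 599 and 583, against 694 to 821 with a median of 764 (-0.23 ± 0.04, adjusted p = 2.36e-05). The groups did not overlap in either table.

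**Figure D2:**
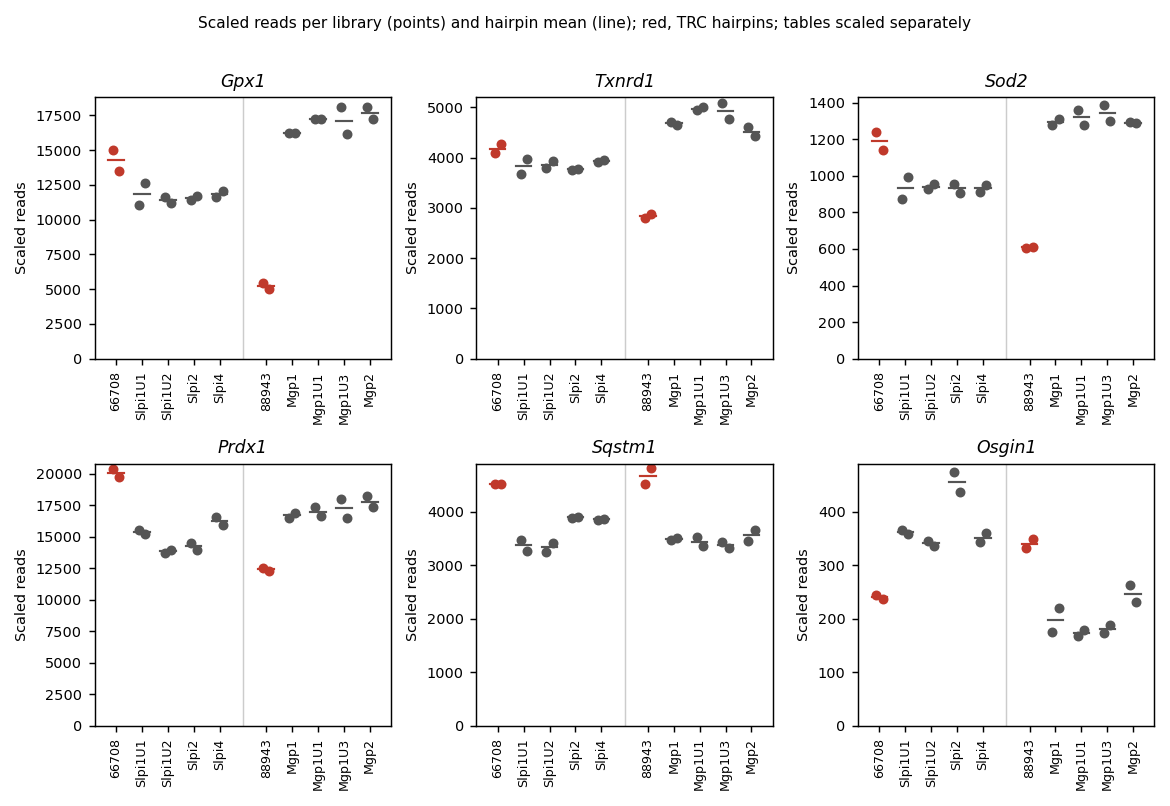
Scaled reads per library (vertical axes from 0) of Gpx1, Txnrd1, Sod2, Prdx1, Sqstm1 and Osgin1 in the 10 hairpin lines; points are the 2 libraries of a line, bars their mean, red marks 66708 and 88943, and the vertical line separates the tables, which were scaled separately. The 88943 points of Gpx1 at 5410 and 5033 lie far under the other Mgp lines, while Sqstm1 is high with both red hairpins.

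Of the 6 peroxiredoxins, 4 were higher with 66708, where 32.1% of all genes were, and 4 were lower with 88943, where 42% were. Prdx1, the abundant cytosolic peroxiredoxin, had 20340 and 19765 scaled reads with 66708, against 13721 to 16574 with a median of 14849. Both libraries exceeded all 8 others, 1.34-fold (log2 difference 0.42 ± 0.04, adjusted p = 3.21e-07). In the 88943 line it had 12530 and 12278 scaled reads, against 16452 to 18240 with a median of 17120, which is 1.38-fold lower (-0.45 ± 0.04, adjusted p = 5.60e-08). Prdx2, the other cytosolic 2-cysteine enzyme, followed the same order. It had 3502 and 3244 scaled reads with 66708, against 2422 to 2925 with a median of 2617 (0.31 ± 0.04), and 2431 and 2406 with 88943, against 2555 to 3158 with a median of 2820 (-0.19 ± 0.03). The Prdx2 call with 88943 was lost with library totals (adjusted p = 0.0552), with quantile normalization (0.0534) and with hairpin means as samples (0.0856). Prdx6, the 1-cysteine peroxiredoxin that also acts on phospholipids, had 3773 and 3687 scaled reads with 88943, against 5358 to 6110 with a median of 5754. That was 1.55-fold lower, with no overlap (-0.56 ± 0.03, adjusted p = 3.96e-10). With 66708, Prdx6 had 5435 and 5509 scaled reads, above a range of 4780 to 5147 with a median of 4925 (0.13 ± 0.03, adjusted p = 0.00451; 0.0517 without 66708 replicate 2). Prdx6 has a named pseudogene, Prdx6-ps2. Prdx3, the mitochondrial enzyme, was 1.54-fold lower with 88943 (-0.44 ± 0.03, adjusted p = 4.58e-09), and its difference of 0.03 ± 0.04 with 66708 was not called. Prdx4, the peroxiredoxin of the endoplasmic reticulum, was 1.13-fold higher with 66708 (0.14 ± 0.04, adjusted p = 0.00647; 0.169 without 66708 replicate 1), and had a difference of 0.00 ± 0.03 with 88943. Prdx5, an atypical peroxiredoxin of mitochondria and peroxisomes, was the exception among those of the 88943 line. It was 1.33-fold higher there (0.35 ± 0.04, adjusted p = 1.66e-06), although the shERWOOD libraries spread from 1399 to 2466 scaled reads and overlapped its 2498 and 2342. With 66708 the Prdx5 difference was 0.00 ± 0.05. Exons of the opposite-strand gene Trmt112 cover 19.1% of the Prdx5 exons, and reads of the pair cannot be told apart there.

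Both superoxide dismutases were higher with 66708, and with 88943 only Sod2 was called, lower; the difference between the 2 genes was not tested. Sod1, the copper-zinc enzyme of the cytosol, had 3154 and 2784 scaled reads with 66708, against 1481 to 2201 with a median of 1864. Both libraries were above every other, 1.60-fold (log2 difference 0.57 ± 0.06, adjusted p = 3.11e-06), which was the largest difference of a member in that table. With 88943 Sod1 had 2126 and 1991 scaled reads in a range of 1820 to 2486 with a median of 2134, and the difference of -0.05 ± 0.05 was not called. Sod2, the manganese enzyme of mitochondria, had 607 and 610 scaled reads with 88943. The other 8 libraries held 1277 to 1389 with a median of 1295, so the line stood at 2.16-fold lower (-0.74 ± 0.03, adjusted p = 2.82e-11). With 66708 Sod2 had 1237 and 1139 scaled reads, against 874 to 992 with a median of 938 (0.25 ± 0.04, adjusted p = 0.000115). Cat, the catalase of peroxisomes, was modestly different in the opposite sense. It had 2496 and 2557 scaled reads with 66708, against 2678 to 2938 with a median of 2718, and 2673 and 2702 with 88943, against 2022 to 2396 with a median of 2229. The differences were -0.11 ± 0.04 (adjusted p = 0.0126) and 0.24 ± 0.04 (adjusted p = 8.63e-05). The first was not called without 66708 replicate 1 (adjusted p = 0.124).

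Of the 5 genes of NADPH supply and the pentose phosphate pathway, 4 were higher with 66708, where 32.1% of all genes were. Among these, G6pdx and Taldo1 lost their call with library totals. Pgd, the second NADPH-yielding enzyme of the pentose phosphate pathway, had 4278 and 4213 scaled reads with 66708, against 2779 to 3401 with a median of 3132. The difference was 1.38-fold (log2 difference 0.42 ± 0.04, adjusted p = 1.25e-06). With 88943 it had 2646 and 2694 scaled reads, against 3592 to 3814 with a median of 3774, or 1.40-fold lower (-0.42 ± 0.03, adjusted p = 7.31e-09). The first enzyme of the same pathway did not follow. G6pdx, the glucose-6-phosphate dehydrogenase, was higher with both hairpins, at 2900 and 2906 scaled reads with 66708, against 2432 to 2790 with a median of 2566. The 88943 libraries had 2858 and 2844, against 2354 to 2770 with a median of 2513. The 2 differences were 0.15 ± 0.04 (adjusted p = 0.00289) and 0.15 ± 0.03 (adjusted p = 0.000728), and exons of the opposite-strand gene Ikbkg cover 13.6% of those of G6pdx. Tkt, the transketolase, was 1.19-fold higher with 66708 (0.22 ± 0.04), with 4042 and 3895 scaled reads against 3076 to 3461. Taldo1, the transaldolase, was 1.14-fold higher (0.13 ± 0.04, adjusted p = 0.00930; 0.0925 without 66708 replicate 1). With 88943, the differences of Tkt (-0.03 ± 0.03) and Taldo1 (0.02 ± 0.03) were not called. Me1, the cytosolic malic enzyme, was 1.13-fold lower with 88943 (-0.13 ± 0.03, adjusted p = 0.00270), and its -0.07 ± 0.04 with 66708 was not called. With 88943 the Me1 call was lost with library totals (-0.03, adjusted p = 0.459), quantile normalization (0.417) and hairpin means as samples (0.108).

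The glutathione transferases, which couple glutathione to electrophiles, did not move together. Gsta4, which handles the lipid peroxidation product 4-hydroxynonenal, had 884 and 841 scaled reads with 66708, against 456 to 667 with a median of 598. It was 1.53-fold higher without overlap (log2 difference 0.40 ± 0.04, adjusted p = 2.38e-06). In the 88943 line it had 1202 and 1172 scaled reads, above a range of 854 to 1139 with a median of 1023 (0.17 ± 0.03, adjusted p = 0.000234). Gsto1, an omega-class transferase, had 1040 and 969 scaled reads with 66708, against 719 to 866 with a median of 786, and 927 and 866 with 88943, against 1060 to 1341 with a median of 1241. It was called higher in the first (0.24 ± 0.04) and lower in the second (-0.30 ± 0.03), with no overlap in either. Gstp1, the pi-class transferase, had 880 and 891 scaled reads with 66708, against 939 to 1084 with a median of 1033, and 692 and 665 with 88943, against 815 to 1048 with a median of 855. It was lower in both (-0.14 ± 0.04 and -0.24 ± 0.04). Its close relative Gstp2 is also listed, and how reads shared by the pair were counted is not given in the sources used here, so the Gstp1 values are uncertain. Mgst1, a membrane-bound transferase, was 1.27-fold higher with 66708 (0.19 ± 0.04, adjusted p = 0.000774), with 1 of the 2 libraries inside the shERWOOD range, and its 0.07 ± 0.04 with 88943 was not called. Gstm1, too low to be tested, had 84.7 and 78.8 scaled reads with 88943, against 20.3 to 38.9 in the other 8 libraries of that table. With 66708 it had 69.8 and 52.4 scaled reads, against 51.0 to 88.2.

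Among further NRF2 targets, Nqo1 and Sqstm1 gave different patterns. Nqo1, the quinone reductase often used to read NRF2 activity, had 310 and 287 scaled reads with 66708, against 170 to 265 with a median of 203. Both libraries were above the others, 1.44-fold (log2 difference 0.24 ± 0.04, adjusted p = 9.24e-05). The 88943 pair had 163 and 160 scaled reads, against 226 to 281 with a median of 257, which was 1.57-fold lower (-0.25 ± 0.03, adjusted p = 2.00e-06). Sqstm1, which encodes p62, an autophagy receptor that also binds KEAP1, was higher with both. It had 4509 and 4507 scaled reads with 66708, against 3245 to 3900 with a median of 3662 (0.29 ± 0.03, adjusted p = 6.86e-06). In the 88943 line it had 4514 and 4805, against 3313 to 3656 with a median of 3464 (0.38 ± 0.03, adjusted p = 8.63e-08). No shERWOOD library reached either pair, but exons of the opposite-strand gene Mrnip cover 17.3% of those of Sqstm1. Osgin1, an oxidative stress induced growth inhibitor, had 244 and 236 scaled reads with 66708, against 337 to 473 with a median of 359 (-0.32 ± 0.03, adjusted p = 2.89e-06). With 88943 it had 332 and 348, against 167 to 262 with a median of 184, or 1.70-fold higher (0.34 ± 0.04, adjusted p = 8.25e-07). Hmox1, the inducible heme oxygenase, spread widely within the shERWOOD lines. It had 561 and 576 scaled reads with 88943, inside a range of 458 to 964, and was called 1.31-fold lower (-0.23 ± 0.07, adjusted p = 0.00605) but not without 88943 replicate 1 (adjusted p = 0.0649). With 66708 its difference of 0.01 ± 0.08 was not called.

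The calls were also counted by the promoter core described above. With 66708, 8 of the 10 tested members with the core were higher and 1 was lower, and of the 21 tested members with a promoter but no core, 12 were higher and 4 lower, where 32.1% of all genes were higher and 23.6% lower. With 88943, 1 of the 10 was higher and 7 were lower, and of the 21, 7 were higher and 10 lower, where 28.7% of all genes were higher and 42% lower. With library totals, the 10 members with the core gave 4 higher and 2 lower with 66708, and 2 higher and 6 lower with 88943. Of all genes, 1984 of 9489 were then higher and 3274 lower with 66708, and 3890 of 9174 higher and 2640 lower with 88943. Counts of members without the core are not given for that scaling. The difference between members with and without the core was not tested.

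The members were also checked for keeping their call under the alternative settings. The share of all genes that kept theirs was not counted, so no difference in firmness between the lines is drawn from the members. With 66708, 14 members kept their call and direction under every alternative setting that tested them: Gpx1, Prdx1, Prdx2, Nqo1, Pgd, Tkt, Gsta4, Gsto1, Sod1, Sod2 and Sqstm1 were higher, and Gpx8, Srxn1 and Osgin1 were lower. Nfe2l2, Keap1, Gclm, Txn1, Txn2, Txnrd1, Prdx4, Prdx6, G6pdx and Taldo1 lost their call with 66708 when libraries were scaled by total reads. With 88943, 22 members kept their call, 17 of them lower and 5 higher (Gpx4, Txnrd2, Osgin1, Cat and Sqstm1). The other 8 were Gsr, Gpx8, Prdx2, Prdx5, Hmox1, G6pdx, Me1 and Gsta4, all of which lost their call when hairpin means were taken as samples. Library totals also ended the calls of Prdx2, Hmox1 and Me1.

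The 4 shERWOOD lines of a table were also compared with each other. An F test across Slpi1U1, Slpi1U2, Slpi2 and Slpi4 called 5 of 36 members, Prdx1, Osgin1, Gsta4, Mgst1 and Sqstm1, where it called 7.55% of all genes. Across the Mgp hairpins it called 12 of 36, where 29.4% of all genes were called: Gclc, Prdx2, Prdx3, Prdx4, Prdx5, Nqo1, Hmox1, Osgin1, Gsta4, Gsto1, Mgst1 and Sod1. These counts of members rest on few libraries, and counts over all genes moved in the same direction with each library left out here. The first was 9 without Slpi1U1 replicate 2 and 3 without either replicate of Slpi2 or Slpi4. The second was 7 without Mgp1 replicate 1, and 15 and 18 without Mgp2 replicate 1 and 2.

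In the Slpi table the lines stood apart gene by gene. Osgin1 averaged 455 scaled reads with Slpi2 and 341 with Slpi1U2, the lowest, and Slpi2 was higher than each of the other 3 (log2 differences of 0.18 to 0.22 in size). Gsta4 was lowest with Slpi2, at 460 scaled reads, and highest with Slpi4, at 637. Mgst1 was highest with Slpi4, at 449 scaled reads against 315 with Slpi1U2, and Prdx1 was highest there too, at 16240 against 13824 with Slpi1U2. By pair, 0 of 36 members differed between Slpi1U1 and Slpi1U2 (0.79% of all genes), 3 between Slpi1U1 and Slpi2 (4.66%) and 1 between Slpi1U1 and Slpi4 (2.4%). The count was 3 for Slpi1U2 against Slpi2 (1.64%), 5 for Slpi1U2 against Slpi4 (6.48%) and 4 for Slpi2 against Slpi4 (4.18%). For the first pair, 3 members had an unadjusted p below 0.05 in limma, and voom, its version for counts, also called 0 after adjustment.

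In the Mgp table, Prdx5, Hmox1 and Gclc gave the widest contrasts, each between Mgp1U3 and Mgp2. Prdx5 had 2466 and 2216 scaled reads with Mgp2, and 1577 and 1399 with Mgp1U3 (log2 difference 0.52 in size, SE 0.05, adjusted p = 1.50e-05). Gclc had 1295 and 1456 scaled reads with Mgp2, and 1849 and 1943 with Mgp1U3 (0.36 in size, SE 0.05, adjusted p = 0.000398). Hmox1 (0.42 in size, SE 0.08, adjusted p = 0.00299) had 458 and 731 scaled reads with Mgp2, whose 2 libraries stood apart, and 892 and 964 with Mgp1U3. In all 3 genes the libraries of Mgp2 and Mgp1U3 did not overlap. Mgp2 was the higher for Prdx5 and the lower for Gclc and Hmox1. Prdx3 was lowest with Mgp1, at 1274 scaled reads, and Mgst1 highest with Mgp1U3, at 429. By pair, 2 members differed between Mgp1 and Mgp1U1 (8.26% of all genes), 4 between Mgp1 and Mgp1U3 (7.24%) and 8 between Mgp1 and Mgp2 (12%). The count was 2 for Mgp1U1 against Mgp1U3 (7.66%), 4 for Mgp1U1 against Mgp2 (7.68%) and 11 for Mgp1U3 against Mgp2 (25.1%).

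**Figure D3:**
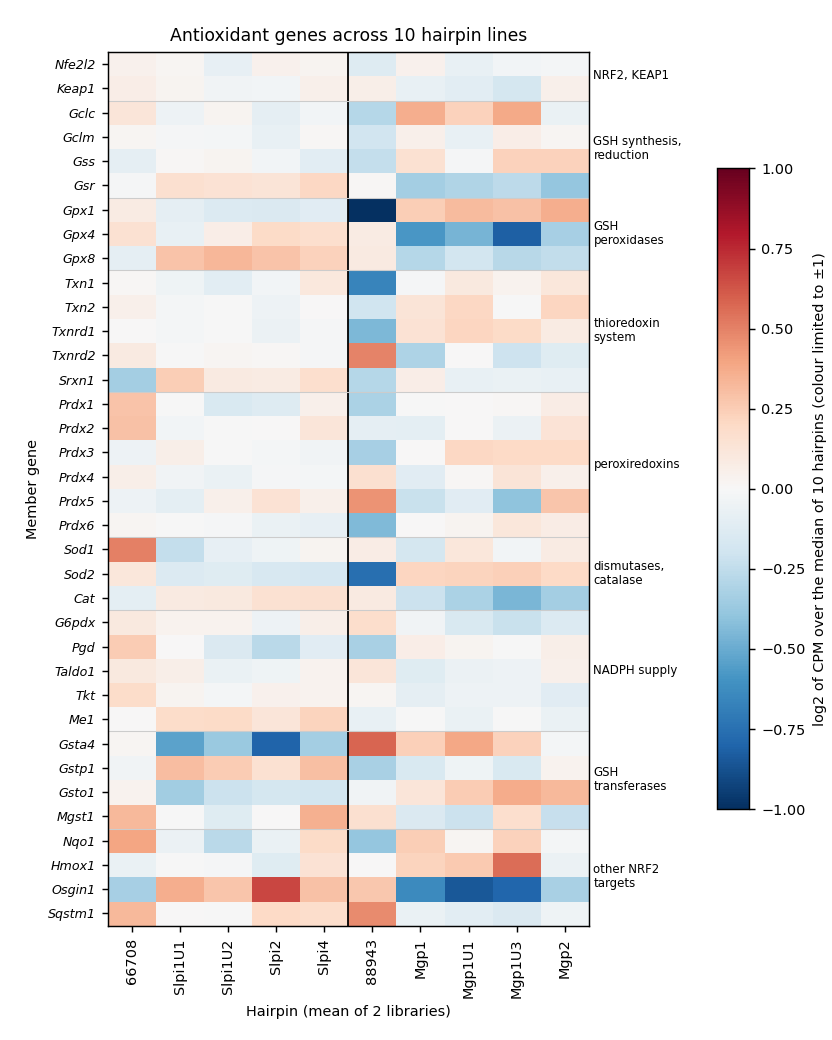
Level of the 36 tested antioxidant genes (rows, grouped by role) in the 10 hairpin lines (columns), as log2 of the mean CPM of a line over the median of the 10 lines, with colour limited to 1 in either direction. The darkest cell is Gpx1 with 88943, at 320 CPM against up to 992 CPM in the other lines, and the vertical line separates the tables, which were normalized separately.

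The following levels are CPM across all 10 lines, a description only, since the tables were normalized separately. Per kilobase of exon, Txn1 was the most abundant member, with a median of 1119 CPM per kb over the 10 lines, followed by Gpx1 (536), Prdx1 (311) and Gpx8 (175). Gsr came next at 77.9, and the lowest of the genes with reads in every line were Gss (3.82), Txnrd2 (2.32) and Gstm1 (2.22). Nfe2l2 was among the steadiest members, between 165 CPM with 88943 and 186 CPM with 66708, a ratio of 1.13. The tested members with the largest spread were Gpx1 (3.10-fold from 88943 to Mgp2), Osgin1 (2.86-fold from Mgp1U1 to Slpi2) and Gsta4 (2.61-fold from Slpi2 to 88943). Gpx4 spanned 2.01-fold, from 10.8 CPM with Mgp1U3 to 21.7 CPM with Slpi2, both shERWOOD hairpins. Of the 36 neighbouring pairs in this order, 32 overlapped in their ranges over the lines, and the exceptions were Txn1 over Gpx1, Prdx1 over Gpx8, Gpx8 over Gsr and Hmox1 over Gclm.

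**Figure D4:**
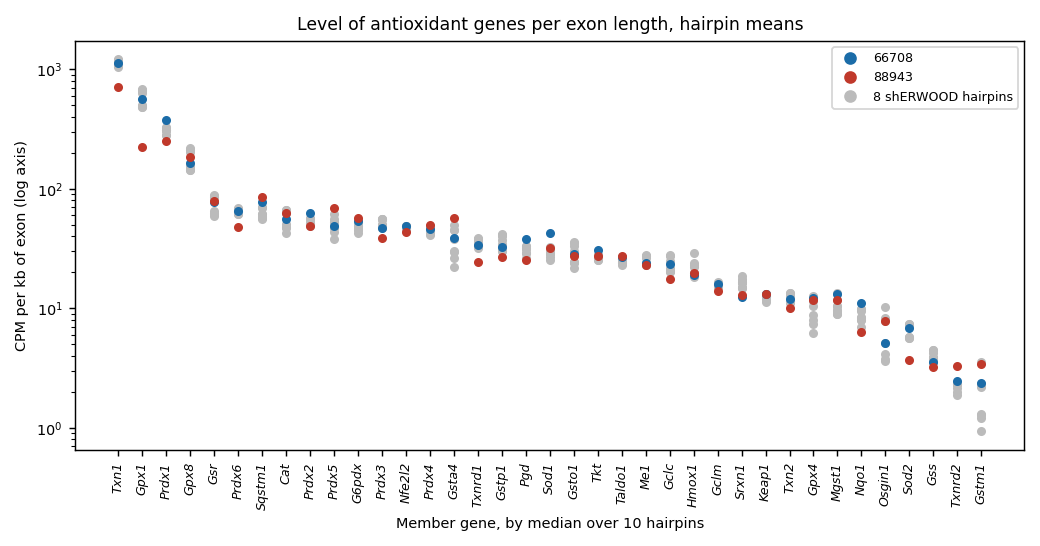
Mean CPM per kb of exon (vertical log axis) of the 37 antioxidant genes with reads in every line, ordered by the median of the 10 lines; grey points are the 8 shERWOOD hairpins, blue is 66708 and red is 88943. Txn1, at a median of 1119, and Gpx1, at 536, lead the order, and the red points of both lie under all the others.

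Other genes of these pathways, from a list of 83 of which 74 are listed in the tables, were tested in the same fits. With 66708, 25 of 56 tested were higher and 12 lower, where 32.1% and 23.6% of all genes were. With 88943, 16 of 55 were higher and 26 lower, where 28.7% and 42% of all genes were. In both lines the largest difference was that of Chac1, from the genes of cystine uptake and glutathione turnover. Of the 8 tested genes of that group, 6 were called in each line, where 55.7% of all genes were with 66708 and 70.7% with 88943. With 66708, 2 were higher and 4 lower, and with 88943, 4 were higher and 2 lower. Chac1, which degrades glutathione and is a target of the transcription factor ATF4, had 1433 and 1376 scaled reads with 88943, against 172 to 206 with a median of 185. It was thus 7.57-fold higher there (log2 difference 1.64 ± 0.03, adjusted p = 5.44e-15). With 66708 it had 231 and 229 scaled reads, against 349 to 1965 with a median of 1206, 5.13-fold lower (-1.28 ± 0.04). Slc7a11, the cystine transporter and a target of both NRF2 and ATF4, had 2383 and 2407 scaled reads with 88943, against 552 to 761 with a median of 595, a 3.86-fold difference (1.41 ± 0.03). With 66708 it had 704 and 672, against 732 to 1996 with a median of 1111 (-0.54 ± 0.05). Its partner chain Slc3a2 (0.68 and -0.45) and the folate enzyme Mthfd2 (0.72 and -0.53), both also ATF4 targets, had the same signs, given for 88943 first. These 4 genes were higher with 88943, where 20 of 36 members were lower, and lower with 66708, where 23 of 36 were higher. They also differed among the Slpi shERWOOD lines, each with an F test past the threshold, so the 66708 comparison of these genes rests on a wide control spread. The 4 were named for the size of their differences, and other genes of cystine uptake and glutathione turnover did not all follow. Cth and Ggct, of that group, were higher with 66708 (0.46 ± 0.03 and 0.31 ± 0.04). Targets of ATF4 were not examined as a set here.

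Fth1, the ferritin heavy chain that stores iron and an NRF2 target, had 28410 and 26690 scaled reads with 88943, against 46079 to 54755 with a median of 48643 (log2 difference -0.82 ± 0.05). Sepw1, a small selenoprotein, was 2.76-fold lower (-0.79 ± 0.04), NAD kinase Nadk was 1.91-fold lower (-0.78 ± 0.03) and the thioredoxin-like Txnl1 was 1.61-fold lower (-0.57 ± 0.03). Each was below all 8 shERWOOD libraries. Of the 11 tested genes of the list's selenoproteins and their synthesis, 6 were lower and 1 was higher with 88943, where 42% and 28.7% of all genes were. Selenoproteins among the members are not in that count and were split with 88943. Gpx1 (-1.61) and Txnrd1 (-0.65) were lower, and Gpx4 (0.22) and Txnrd2 (0.20) were higher. With 66708, Idh1, the cytosolic NADPH-yielding isocitrate dehydrogenase, was 1.67-fold higher (0.64 ± 0.04), and Mgst3 (0.56 ± 0.04), Glrx5 (0.50 ± 0.06) and Cth (0.46 ± 0.03) were also higher. Mgst3 is a membrane-bound transferase, Glrx5 a mitochondrial glutaredoxin of iron-sulfur assembly, and Cth the enzyme that makes cysteine from cystathionine. Idh1 and Cth were higher with 88943 as well (0.38 ± 0.05 and 0.28 ± 0.04).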

How the data were processed

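RNA-seq of 4T1 lines was read from 2 deposited tables of 23480 gene symbols and 10 libraries each. The values deposited by the authors are on a log2-like, variance-stabilized scale. The tools in the submitters' processing notes are Bowtie2, HTSeq and DESeq, and the build is mm10; versions, annotation, strand setting and parameters are not given there. Inverting the transform gave whole reads within 0.001 for 100% of values. Columns were assigned to hairpins by name; the labels list 40 samples, 4 per hairpin, and the 2 columns of a hairpin could not be tied to single samples.

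Genes whose mean exceeded the smallest value (7.92 for Slpi, 8.12 for Mgp) by 1 unit or more were tested with limma 3.58.1 in R 4.3.3. A mean per hairpin was fitted in each table with an intensity trend; the TRC hairpin was set against the average of its 4 shERWOOD hairpins, which were also compared by an F test and in 6 pairs. All tests were two-sided, and p-values were adjusted by Benjamini-Hochberg over every gene tested in a table. The test was checked on simulated counts. Folds are ratios of mean scaled reads. Exon lengths and overlaps came from GENCODE vM21 (GRCm38), and promoters from RefSeq (GRCm38.p6). Named genes were all members with reads above the minimum, up to 8 called other pathway genes per TRC contrast with the largest differences, and Slpi and Mgp; members called in both contrasts, or among the 5 largest in either, are shown by library. Alternatives changed the scaling, filter, count model, trend, unit of replication, pairing and each library in turn. Members and lists were chosen with earlier results of these data known.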

Additional observations from a re-analysis of the deposited data

Results flagged for a closer look

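Over all genes, both 66708 libraries lay outside the 8 shERWOOD libraries of their table for 48.6%, and both 88943 libraries for 60.4%. Opposite calls in the 2 lines covered 18.4% and 10.6% of the 9144 genes tested in both tables. Genes outside on opposite sides in the 2 tables were counted among the members only, so no share over all genes is given. In 15 members, both libraries of 66708 lay outside on one side, and both libraries of 88943 lay outside theirs on the other. The difference between the 2 lines was not tested, since the tables were normalized separately. In 12 of them 66708 was the higher, and the log2 difference with 88943 was -1.61 for Gpx1 (0.28 with 66708), -0.74 for Sod2 (0.25), -0.65 for Txnrd1 (0.11), -0.56 for Prdx6 (0.13) and -0.48 for Gclc (0.19). It was -0.45 for Prdx1 (0.42 with 66708), -0.42 for Pgd (0.42), -0.31 for Txn2 (0.11), -0.30 for Gsto1 (0.24), -0.26 for Gclm (0.10), -0.25 for Nqo1 (0.24) and -0.19 for Prdx2 (0.31). In the other 3 the signs were exchanged: 0.34 with 88943 for Osgin1 (-0.32 with 66708), 0.24 for Cat (-0.11) and 0.17 for Gpx8 (-0.25).

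Among 72 sets of 4 shERWOOD hairpin means, 4 had 1 hairpin far from the other 3, and chance alone gives about 1 in 20. Prdx3 averaged 1213 scaled reads with Slpi1U1, against 1161 to 1164 with the other 3. Sod2 averaged 941 scaled reads with Slpi1U2, against 932 to 933. Both gaps were smaller than the largest replicate SD of a hairpin, 78.6 for Prdx3 and 83.1 for Sod2, and the F test across the 4 hairpins called neither (adjusted p = 0.798 and 0.998). In the Mgp table, Prdx3 averaged 1274 with Mgp1, against 1466 to 1488, and Mgst1 averaged 429 with Mgp1U3, against 321 to 339, and the F test called both (adjusted p = 0.0130 and 0.0122).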

How the results depend on the processing

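The count of members higher with 66708 was 23 as deposited, 14 after quantile normalization, 13 with library totals, 13 with library totals without Rn45s, and 12 with hairpin means as samples. Hairpin means leave the TRC line a single sample, and fewer members were then called lower with 66708 and higher with 88943. Fewer of all genes were also called, in both directions and in both lines. With hairpin means the TRC line is assumed to vary like the others, and no F test could be fitted. The count differing among the Slpi shERWOOD hairpins was 5, 0 in limma without a filter (10 at an unadjusted p below 0.05, and 6 by voom with the filter) and 3 with the stricter filter. Without a filter, 21107 genes were tested in that table in place of 9489, and the F test called 272 of them in place of 716. The stricter filter left 5754 genes, of which the F test called 545. Of all genes tested, 3046 were higher with 66708 as deposited, 2476 after quantile normalization, 1984 with library totals and 2138 with library totals without Rn45s. The cause of the other changes was not tested.

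With 1 library left out in turn, the counts ranged from 16 to 23 (higher with 66708), 4 to 5 (lower), 3 to 9 (Slpi shERWOOD), 9 to 10 (higher with 88943), 19 to 20 (lower) and 7 to 18 (Mgp shERWOOD). With 88943, Keap1 was called higher at 0.0917 and 0.0914 with library totals and library totals without Rn45s, and Tkt at 0.0919 with quantile normalization and 0.0835 and 0.0832 with the same totals, where neither was called as deposited. With the replicate number as a block, the counts stayed at 23, 5, 5, 10, 20 and 12. Deviations of same-numbered libraries correlated from -0.526 to 0.550 in the Slpi table and from -0.167 to 0.285 in the Mgp table, so the numbers do not pair the libraries. The library-total settings were chosen after the data were seen. Scalings moved the median of all genes by at most 0.084.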
